A study of Homo sapiens with 6 samples.

Results

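ACHN is a cell line established from a human renal adenocarcinoma. Its cells were transfected with siMEX3A_1 or siMEX3A_2, which are different siRNAs against MEX3A, and harvested for RNA after 48 h. The contrast described here sets those siRNAs against each other, 2 libraries against 2 of the 6 in the series. The other libraries received a negative control siRNA (NC). They do not enter the contrast, and serve for the shared estimate of spread and as levels for orientation. Apart from the siRNA, the labels give all groups the same cell line, time and extraction, and all rest on 1 line. The features compared were the genes of the count tables whose name occurs once, 55928 of 60409 rows, and 18197 of them had enough counts to be tested. The sequences of the siRNAs are not in the sources used here.

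MEX3A belongs to a family of RNA-binding proteins that carry KH domains, which bind RNA, and a RING domain, which marks ubiquitin ligases. An siRNA guides the Argonaute protein to transcripts that match it and so lowers their amount. siRNAs against 1 transcript share that target and differ in sequence, so a direct contrast between them shows how alike the cells' transcripts were under each. A positive log2 difference below always means more RNA with siMEX3A_1, and levels are normalized counts, that is, counts scaled by TMM library sizes to a library of mean size. They are not corrected for gene length, so levels are compared only within a gene.

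The difference in the targeted gene did not pass the test. MEX3A, a low transcript here, had 56.6 and 65.3 normalized counts in the siMEX3A_1 libraries and 73.0 and 76.1 in the siMEX3A_2 libraries. Both NC libraries, at 93.3 and 106, lay above these. The siMEX3A_1 values were below the siMEX3A_2 values without overlap, and the log2 difference of -0.29 (SE 0.18) did not pass edgeR's quasi-likelihood test (adjusted p = 0.212, 95% interval -0.70 to 0.11). Of the family members, MEX3B did part: it had 88.0 and 117 with siMEX3A_1, 201 and 206 with siMEX3A_2 and 98.3 and 89.7 in NC, so that siMEX3A_2 stood above all other libraries, and the difference was -0.99 (SE 0.15) (edgeR adjusted p = 0.000462). MEX3D had a difference of 0.25 (SE 0.086) that passed with all libraries and not without either siMEX3A_1 library or without siMEX3A_2 replicate 2 (edgeR adjusted p = 0.0556, 0.110 and 0.240). MEX3D also fell short with library size scaling alone and with no filter on low counts (edgeR adjusted p = 0.0700 and 0.0696) and with DESeq2 (adjusted p = 0.182). MEX3C did not pass (0.04, SE 0.074).

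The libraries were even in depth, with 18825618 to 19158566 counts each. Most renal markers were present: of 11 markers of ACHN and renal carcinoma cells, 10 were tested, PAX8, KRT8, KRT18, VIM and MET among them with at least 4598 counts in every library. CA9, a hypoxia-induced carbonic anhydrase of clear cell tumours, had at most 6 counts, and CDH6, a kidney cadherin, at most 13. Of 8 leukocyte markers PTPRC had at most 2 counts and CD3E had 0, while ITGAM had 8 and 22 counts with siMEX3A_1 and 51 and 59 with siMEX3A_2 and was called lower (-1.84, SE 0.37, and -2.74 without siMEX3A_1 replicate 2). Of 7 endothelial markers found in the tables CDH5 had at most 1 count and ERG had 0, while ESAM had 26 and 23 against 49 and 55 and was called lower (-1.06, SE 0.26). Of 8 fibroblast markers LUM had at most 2 counts, while THY1 had 5125 to 12976 and made up most of that list's sum. Summed leukocyte marker counts, 595 to 623 with siMEX3A_1 and 626 to 672 with siMEX3A_2, were mostly CD68. Summed endothelial marker counts, 32 to 34 and 53 to 59, were mostly ESAM. Summed fibroblast marker counts were 6030 to 6763 and 5311 to 5408. In bulk RNA, fewer cells in a given state and less RNA per cell cannot be told apart, which touches every gene group below.

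Differences between the siRNAs ran through the whole transcriptome: 9504 of 18197 genes differed at an adjusted p under 0.05, which is 52.2% of those tested. Of these 4803 (26.4%) were higher with siMEX3A_1 and 4701 (25.8%) were higher with siMEX3A_2. Differences of at least 2-fold were called in 2719 genes (14.9%), 1218 higher (6.69%) and 1501 lower (8.25%) with siMEX3A_1. Differences of at least 4-fold were called in 567 genes, 235 higher and 332 lower. All other calls were smaller, and 794 of them, 8.35% of those called, were under 1.2-fold. Because so many genes passed, calls are described together with the sizes of the differences.

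The spread between libraries of 1 group was small against these differences. Over 11501 genes with a mean of at least 100 counts, the median absolute log2 difference between replicates was 0.0993 with siMEX3A_1, 0.0683 with siMEX3A_2 and 0.0861 in NC. Between the siRNA group means it was 0.396, with a 95th percentile of 1.52. The values of the siRNA groups did not overlap in 75% of all tested genes. Only 2 libraries stand behind each group. No label states that they were separate cultures, and the p-values then reflect only how these libraries vary, possibly for technical reasons.

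**Figure D1:**
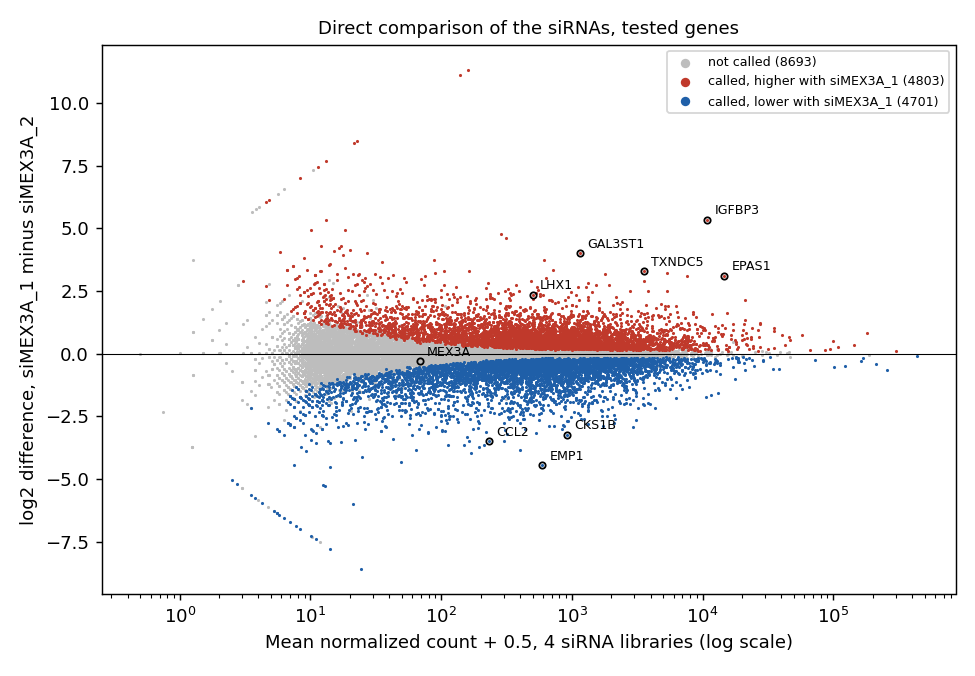
Each point is 1 tested gene, with its mean normalized count over the 4 siRNA libraries plus 0.5 on a log axis and the log2 difference of siMEX3A_1 minus siMEX3A_2 on the other. Coloured points are the 9504 genes that passed the edgeR test, and they lie about evenly above (4803) and below (4701) 0, while the slanted rows at the far left are genes with 0 in both libraries of a group, whose difference depends on the prior count.

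The share of calls differed between transcript classes. Of 13725 protein-coding genes 60.9% were called and 15.5% were called at 2-fold or more. Among 1001 lincRNA genes these shares were 23.8% and 14%, and among 1219 antisense genes 24.6% and 14.4%. In the other classes the share called at 2-fold or more ran from 6.98% of 43 miscellaneous RNA genes and 7.03% of 256 transcripts still to be experimentally tested to 15.3% of 59 sense overlapping genes. Calls followed abundance: with the tested genes cut into 4 equal bins by mean count, 15.8% of the lowest bin passed the test and 73.8% of the highest. The median absolute log2 difference went the other way, from 0.54 in the lowest bin to 0.36 in the highest. Mean counts in the lowest bin were at most 34.4, where counting noise widens such differences, and how much of the trend it makes up was not tested.

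Among genes with a symbol and at least 100 normalized counts, the widest gap was that of IGFBP3, which encodes a secreted carrier of insulin-like growth factors. It had 21623 and 20896 normalized counts with siMEX3A_1 and 521 and 525 with siMEX3A_2, around an NC level of 1380.2 and 1292. Every siMEX3A_1 library was above NC and every siMEX3A_2 library below it. The log2 difference was 5.35 (SE 0.060), a ratio of 40.6 (edgeR adjusted p = 1.19e-10). NDRG1, a hypoxia- and stress-induced gene, had 14057 and 13267 against 1581 and 1615, with NC at 2060.3 and 2001. Its log2 difference of 3.10 (SE 0.055) came with siMEX3A_1 libraries far above NC and siMEX3A_2 libraries somewhat below it. GAL3ST1, the sulfotransferase that makes sulfatide in renal cells, had 2181 and 2139 against 149 and 120.2 and a difference of 4.0 (SE 0.093). NC lay between these, at 685 and 719. ADM, the vasodilator peptide adrenomedullin, differed by 3.33 (SE 0.100), with 1329.7 and 1262 against 113 and 145 normalized counts. CAMK2N1, an inhibitor of calmodulin-dependent kinase II, differed by 3.31 (SE 0.18) and NOG, the BMP antagonist noggin, by 3.72 (SE 0.11).

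TXNDC5, SLC39A6 and EPAS1, also among the highest, were near or above NC with siMEX3A_1 and far below it with siMEX3A_2. TXNDC5, a protein disulfide isomerase of the endoplasmic reticulum, had 6513 and 6294 normalized counts with siMEX3A_1, 6308 and 6283 in NC and 692 and 614 with siMEX3A_2. Its log2 difference was 3.29 (SE 0.067) (edgeR adjusted p = 7.87e-09), and it overlaps an annotated readthrough gene, so how reads were split between them is uncertain. SLC39A6, a zinc importer, showed the same order, with 3176 and 3284, 2956 and 2747 in NC and 359 and 356, and differed by 3.17 (SE 0.070). EPAS1, which encodes HIF-2alpha, had 25168 and 27356 with siMEX3A_1, 15749 and 14331 in NC and 3031 and 3060.2 with siMEX3A_2. The groups were 8.62-fold apart at high counts, a log2 difference of 3.11 (SE 0.062). PIK3R2, a regulatory subunit of phosphoinositide 3-kinase, had 659 and 446 with siMEX3A_1 and 4.0 and 36.0 with siMEX3A_2, against 463 and 494 in NC. Its siMEX3A_2 replicates were themselves far apart, and the log2 difference of 4.78 (SE 0.40) became 3.94 without siMEX3A_2 replicate 1 and 7.06 without replicate 2. SEMA6A, a membrane semaphorin, differed by 2.92 (SE 0.11). The other 4 of the 15 highest were the keratin-associated KRTAP2-3 (4.60), the filaggrin gene FLG (3.22), the pseudogene FER1L4 (3.03) and TTC21B-AS1 (3.31), an antisense gene that counting without strand could not separate from its partner. KRTAP2-3, which has near-identical neighbours, had 593 and 604 with siMEX3A_1, 19 and 30.0 with siMEX3A_2 and 3.97 and 5.85 in NC, so that both siRNA groups lay above NC.

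At the other end stood EMP1, an epithelial membrane protein, with 49.5 and 54.1 normalized counts with siMEX3A_1 and 1098 and 1169 with siMEX3A_2. NC was at 155 and 147, so the siRNA groups lay on opposite sides of it. The log2 difference was -4.45 (SE 0.097) (edgeR adjusted p = 8.40e-09). CCL2, the monocyte chemoattractant, had 41.5 and 33.7 against 408 and 443, with NC at 429.9 and 465. Its level with siMEX3A_2 was near NC and the difference was -3.50 (SE 0.13). CKS1B, a cyclin-dependent kinase subunit needed to mark p27 for degradation, had 159 and 195 against 1685 and 1635, with 2119 and 2129.9 in NC. It differed by -3.23 (SE 0.092). Others of the 15 lowest were DLGAP5 (-3.83), a spindle protein, RMI2 (-3.64), of a complex that resolves recombination intermediates, ESCO2 (-3.62), a cohesin acetyltransferase, and MCM10 (-3.48), a replication factor. PCLAF (-3.20), which binds the replication clamp, SHCBP1 (-3.17) and the nuclease gene EXO1 (-3.13) were among them too. DLGAP5 had 58.6 and 45.9 against 770.2 and 717 normalized counts and MCM10 had 25.3 and 28.6 against 310.1 and 291. The remainder were RGS9 (-3.70), which shortens G-protein signals, the sialic acid receptor SIGLEC15 (-3.33), the gap junction gene GJB2 (-3.09), the phosphatase inhibitor PPP1R1A (-3.08) and the chromatin adaptor COPRS (-3.04).

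**Figure D2:**
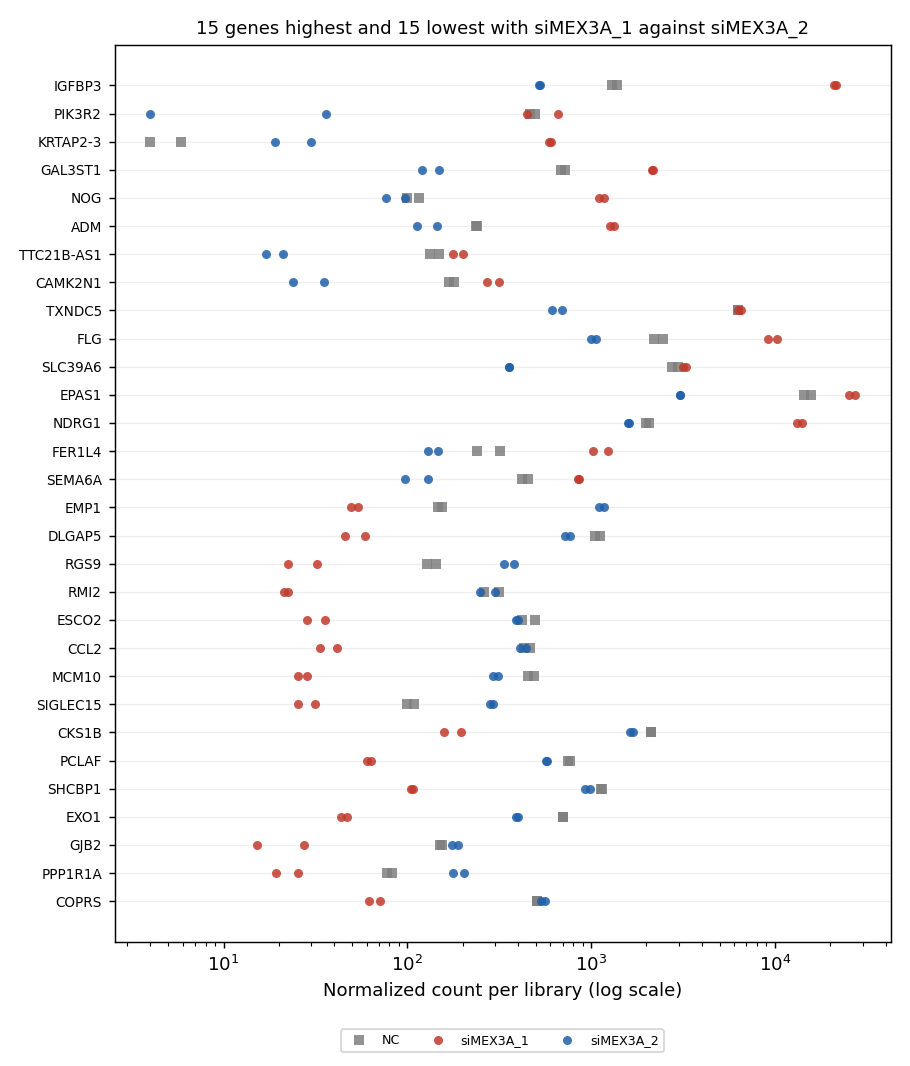
Normalized counts on a log axis for the 15 genes with the highest and the 15 with the lowest log2 difference among those with a mean of at least 100, with 1 point per library of NC, siMEX3A_1 and siMEX3A_2. IGFBP3 spans from 521 to 21623, and the PIK3R2 points of siMEX3A_2 are the most spread of their gene.

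The gene groups below come from lists drawn up for the cell cycle, secretion, metabolism, signalling, matrix, lineage and RNA control. Over all tested genes 26.4% were higher and 25.8% lower with siMEX3A_1, with a median log2 difference of 0.00. Calls were more frequent among protein-coding genes (60.9%). In the bin of highest mean counts 73.8% were called, 1779 of 4549 genes higher and 1576 lower. List counts are to be read against these shares too, and a list of abundant genes near them does not stand out by its calls.

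**Figure D3:**
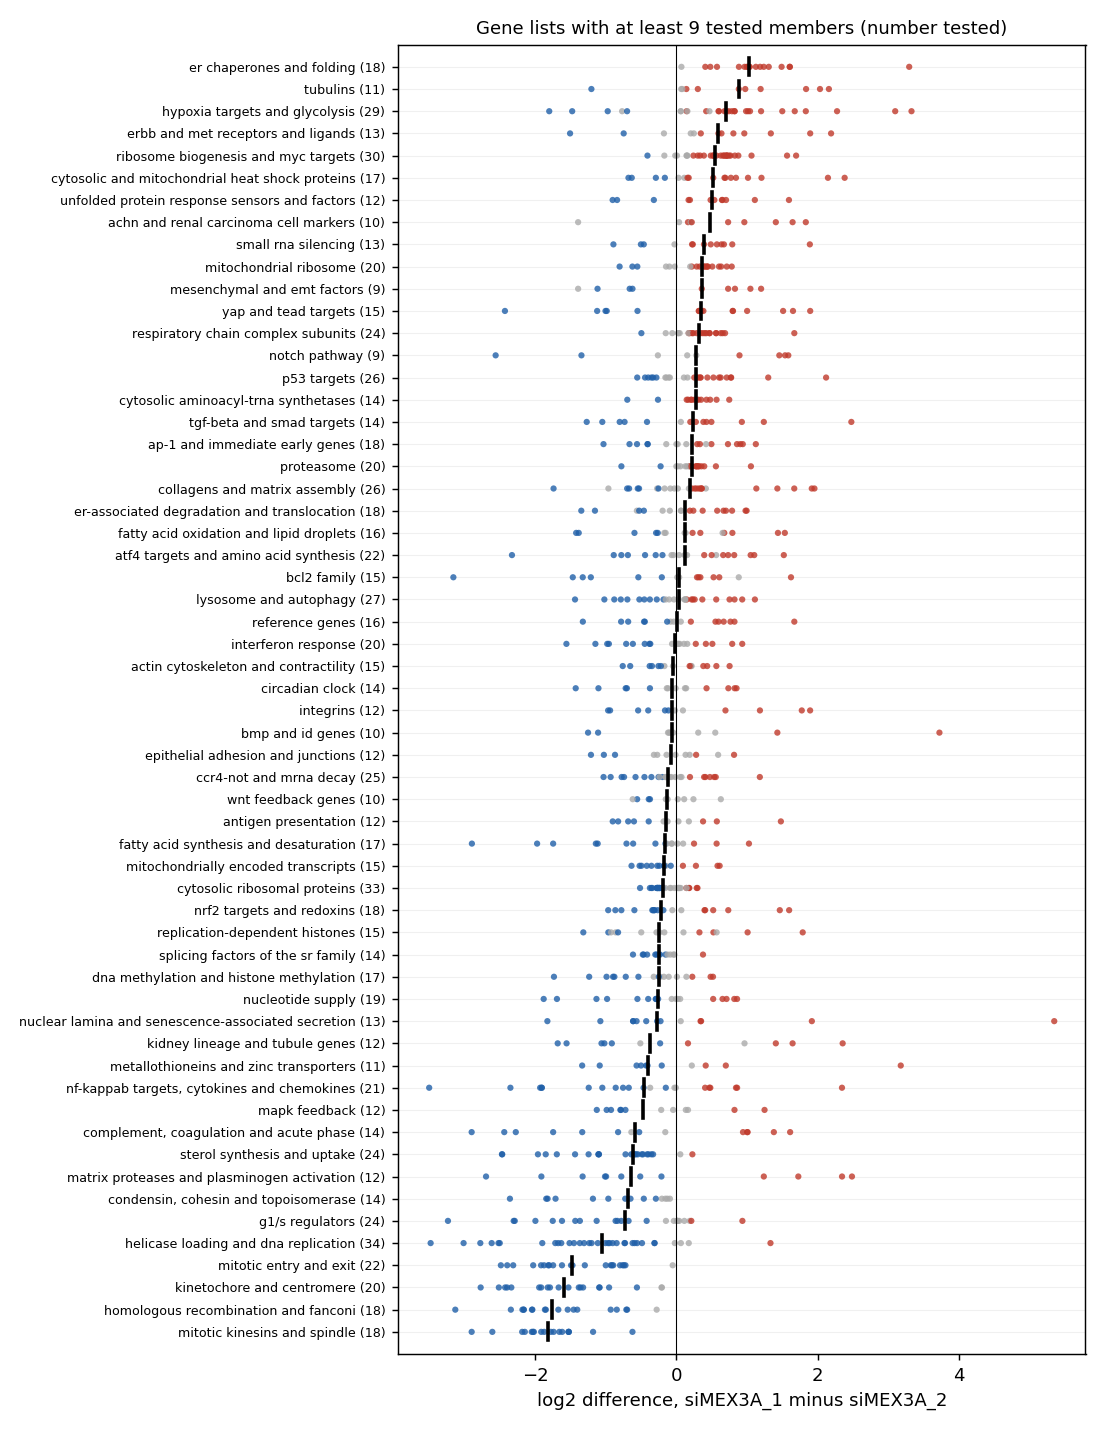
Each line is 1 gene list with at least 9 tested members, with 1 point per member at its log2 difference of siMEX3A_1 minus siMEX3A_2 (red called higher, blue called lower, grey not called) and a black bar at the median, by which lists are ordered. Mitotic and DNA repair lists sit at the low end, with medians of -1.82 and -1.76 for mitotic kinesins and for homologous recombination, and endoplasmic reticulum chaperones at the high end with 1.03.

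Genes of mitosis were lower with siMEX3A_1 almost to the last member. All 18 tested genes for mitotic kinesins and spindle proteins were lower (median -1.82, from -2.90 to -0.62). HMMR, a spindle assembly factor, had 203 and 205 normalized counts with siMEX3A_1 and 1491 and 1548 with siMEX3A_2, and NC had 1048 and 1086. PRC1, which bundles microtubules of the central spindle, had 319.5 and 344 against 2056 and 1976, with 2446 and 2499.5 in NC. In both genes the siMEX3A_1 libraries were the lowest of the 6, with differences of -2.90 (SE 0.071) and -2.60 (SE 0.071). KIF11, the motor that pushes spindle poles apart, differed by -1.52 (SE 0.071) and KIF22, a chromosome arm motor and the least different of the list, by -0.62 (SE 0.067).

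The upstream windows of these genes are shown because every tested member of the list moved one way. The element TTTGAA, searched on both strands, is the core of the cell cycle homology region, through which late cell cycle genes are known to be held down outside the cycle. In the 250 bases before the RefSeq start (GRCh38.p14), it was present in 9 of the 16 spindle genes with an entry (56.2%), against 3102 of 22114 promoters (14%). Capitals mark the match, on the gene's strand or as its complement TTCAAA.
HMMR (chr5:163460584-163460631, plus strand): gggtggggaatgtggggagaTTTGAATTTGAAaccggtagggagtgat
ANLN (chr7:36389816-36389861, plus strand): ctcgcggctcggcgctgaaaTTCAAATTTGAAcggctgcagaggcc
PRC1 (chr15:90994536-90994575, minus strand): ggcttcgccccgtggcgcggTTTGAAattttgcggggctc
KIF11 (chr10:92593082-92593127, plus strand): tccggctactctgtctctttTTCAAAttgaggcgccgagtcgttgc
KIF15 (chr3:44761739-44761784, plus strand): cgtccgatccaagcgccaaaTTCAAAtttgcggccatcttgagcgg
KIF23 (chr15:69414274-69414319, plus strand): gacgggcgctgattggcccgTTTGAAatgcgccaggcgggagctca
In the 6 shown the nearest match began 20 to 55 bases before the start. In the other genes with a match it began 34 bases before the start in KIF4A, 10 in KIF18A and 113 in ASPM. The 9 genes with a match had a median log2 difference of -1.87 and the 7 without one -1.91, so the letters did not sort the list by size. Among mitotic entry genes 5 of 11 promoters held the match and among kinetochore genes 3 of 15.

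Regulators of mitotic entry and exit followed the same direction, with 21 of 22 lower, 0 higher and a median of -1.48. CDK1, the kinase that starts mitosis, had 251 and 253 normalized counts with siMEX3A_1 against 1347 and 1469 with siMEX3A_2 and 2138 and 2059.7 in NC. The siMEX3A_2 libraries were the closer to NC, and the log2 difference was -2.48 (SE 0.077). MAD2L1, of the spindle checkpoint, differed by -2.39 (SE 0.077) and FOXM1, a transcription factor for mitotic genes, by -1.87 (SE 0.056). CCNA2, which encodes cyclin A2, was the exception. It had 427 and 466 against 445 and 481, overlapping values and a difference of -0.05 (SE 0.078) with an interval of -0.23 to 0.12, while NC had 2027 and 1959. The siRNA groups were thus no further apart than that interval allows, and both were below NC. Of 20 kinetochore and centromere genes 18 were lower, 0 higher (median -1.60). CENPU had the widest gap, -2.77 (SE 0.14), and CENPH (-0.20, SE 0.097, interval -0.42 to 0.01) and CENPM (-0.21, SE 0.11, interval -0.46 to 0.04) did not pass. In the group of condensin, cohesin and topoisomerase genes the cohesin ring genes SMC1A (-0.13) and SMC3 (-0.16) did not pass, while the condensin II subunit NCAPG2 differed by -2.35 (SE 0.077) and TOP2A, which untangles replicated DNA, by -1.71 (SE 0.070). SMC3 passed with library size scaling alone (-0.20, edgeR adjusted p = 0.0275) and with a minimum mean of 50 counts (-0.18, edgeR adjusted p = 0.0388).

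DNA replication genes were also mostly lower with siMEX3A_1, with exceptions that carry known roles. Of 34 tested genes for helicase loading and replication 30 were lower and 1 higher (median -1.06). MCM5, a subunit of the replicative helicase, had 123 and 112 normalized counts against 742 and 700.0 with siMEX3A_2 and 1491 and 1483 in NC. MCM3, of the same ring, had 471 and 445 against 688 and 658, with 1841 and 1922 in NC. Subunits of 1 complex thus parted by different amounts, -2.61 (SE 0.083) for MCM5 and -0.56 (SE 0.071) for MCM3. The gene that was higher was GMNN, which encodes geminin, the inhibitor of helicase reloading. It had 280.1 and 259 against 111 and 103, with 582 and 626 in NC, a difference of 1.33 (SE 0.11) with the siMEX3A_2 libraries lowest. PCNA, the sliding clamp (0.06, SE 0.063, interval -0.08 to 0.21), and RPA2, of the single-strand binding complex (-0.02, SE 0.072, interval -0.18 to 0.14), did not pass the test, and nor did POLA1 of the primase complex (0.18, SE 0.14). PRIM1, the primase, was 8.05-fold lower (-3.01, SE 0.14).

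Homologous recombination and Fanconi genes were lower nearly without exception, 17 of 18 lower and 0 higher (median -1.76). EXO1, a nuclease that resects breaks, had 43.5 and 46.9 normalized counts against 402 and 389.5, with 700.0 and 705 in NC. FANCD2, the monoubiquitinated core of the Fanconi pathway, had 101 and 119 against 567 and 551, with 1019.7 and 1074 in NC. Differences were -3.13 (SE 0.11) and -2.34 (SE 0.095), and XRCC3 was the member that did not pass (-0.28, SE 0.15), except without siMEX3A_1 replicate 1 (-0.55, edgeR adjusted p = 0.00702). Nucleotide supply ran in both directions, with 5 of 19 genes higher and 10 lower. The deoxynucleotide genes RRM2 (-1.88, SE 0.080), TK1 (-1.69, SE 0.068) and RRM1 (-1.13, SE 0.064) were lower, while ADSL (0.86, SE 0.064) and IMPDH2 (0.82, SE 0.065) of purine synthesis and CAD (0.65, SE 0.062) of pyrimidine synthesis were higher.

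The G1/S regulators did not move as 1 block. Of 24 tested, 14 were lower and 2 higher with siMEX3A_1. Among cyclins, CCNE2 had 9.10 and 10.2 normalized counts against 54.0 and 41.1, with 124 and 95.6 in NC, and differed by -2.29 (SE 0.31). CCND3, unlike the lowered CCND1, was higher, with 3389 and 3306 against 1800.5 and 1703, with 4186 and 4223 in NC (0.93, SE 0.056). CCND2 (0.04, SE 0.20, interval -0.42 to 0.50) and CDK4 (0.11, SE 0.052, interval -0.01 to 0.23) did not pass the test. Among the E2F factors, E2F1 had 41.5 and 42.8 against 123 and 136, a difference of -1.62 (SE 0.15), and E2F2 differed by -2.30 (SE 0.35). The pocket protein genes RB1 and RBL1 were lower as well, RB1 with 1055 and 1261 against 2029.6 and 2173 and RBL1 by -1.36 (SE 0.15). RB1 was above NC (1388 and 1259) with siMEX3A_2 only, and its difference was -0.86 (SE 0.092).

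CDK inhibitor genes went both ways. CDKN1A, which encodes p21, was above NC (5528 and 5953) in both groups, at 17694 and 17010.3 with siMEX3A_1 and 10192 and 10145 with siMEX3A_2. The log2 difference between them was 0.77 (SE 0.048). CDKN1C, which encodes p57, had 9.10 and 2.04 against 48.0 and 44.1, with 45.7 and 57.5 in NC, and differed by -3.02 (SE 0.46). Its siMEX3A_1 replicates were unequal, and without replicate 1 or 2 of that group the difference was -4.41 or -2.32. CDKN1B, which encodes p27, did not pass, at -0.13 (SE 0.073) with an interval of -0.30 to 0.03. Targets of p53 were higher in 14 of 26 and lower in 6, with SFN (2.12, SE 0.17) and ZMAT3 (1.30, SE 0.080) the furthest apart and a median of 0.27.

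Chaperones of the endoplasmic reticulum were higher with siMEX3A_1 as a group. Of 18 tested, 17 were higher and 0 lower (median 1.03), and the member that did not pass was DNAJB11 (0.07, SE 0.071). HSPA5, which encodes the chaperone BiP, had 19597 and 19809.8 normalized counts with siMEX3A_1, 12979 and 13704 in NC and 9613 and 9866 with siMEX3A_2. HSP90B1, its partner GRP94, had 24305 and 23526, then 20607 and 21299, then 10212 and 10833 in the same order. For both genes NC lay between the siRNA groups, and the differences were 1.02 (SE 0.043) and 1.18 (SE 0.044). PDIA4, a disulfide isomerase, differed by 1.60 (SE 0.045), HYOU1, a nucleotide exchange factor for BiP, by 1.61 (SE 0.054) and PPIB, a prolyl isomerase for collagen, by 1.31 (SE 0.062).

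Many of these genes are known to be induced through the ER stress response element, CCAAT and CCACG separated by any 9 bases. It was searched on both strands of the 250 bases before the RefSeq start and was present in 4 of the 13 chaperone genes with an entry (30.8%) and in 19 of 22114 promoters (0.0859%). The 4 stretches are printed because they mark members that moved together, with the element in capitals.
HSPA5 (chr9:125241371-125241429, minus strand): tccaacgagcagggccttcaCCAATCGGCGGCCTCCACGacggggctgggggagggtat
HSP90B1 (chr12:103930196-103930359, plus strand): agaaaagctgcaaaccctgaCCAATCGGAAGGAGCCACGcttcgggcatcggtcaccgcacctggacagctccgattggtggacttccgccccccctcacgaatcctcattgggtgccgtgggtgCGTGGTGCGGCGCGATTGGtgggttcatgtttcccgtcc
CALR (chr19:12938364-12938422, plus strand): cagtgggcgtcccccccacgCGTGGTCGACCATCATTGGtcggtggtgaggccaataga
CRELD2 (chr22:49918534-49918592, plus strand): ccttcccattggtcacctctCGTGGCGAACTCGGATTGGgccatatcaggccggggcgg
HSP90B1 holds 2 matches, one on each strand. The shorter element, ATTGG and CCACG separated by 1 base, was present in 2 others, SDF2L1 (1.24, SE 0.15) and HYOU1, and in 13 of 22114 promoters (0.0588%). The 4 genes with the long element had a median difference of 1.02 and the 9 without it 1.12. A match is a description of letters, and its absence says only that these letters are not in this window.

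Genes for degradation and translocation at the endoplasmic reticulum did not follow the chaperones as a block, with 9 of 18 higher and 4 lower. HERPUD1, an ER membrane protein of the degradation pathway, was higher (2997 and 3201 against 1611 and 1501, 0.99, SE 0.066). DERL1, a membrane channel of that pathway, was lower (551 and 510.1 against 1221 and 1137, -1.15, SE 0.070), as was the signal peptidase subunit SPCS3 (-1.34, SE 0.057). Of 12 sensors and factors of the unfolded protein response, 9 were higher and 3 lower (median 0.51). With library size scaling alone these counts were 7 and 3, and with a replicate block 8 and 2. Fewer were higher, too, without siMEX3A_1 replicate 1 or without either siMEX3A_2 library. XBP1 differed by 1.11 (SE 0.069) and the membrane-bound factor CREB3L2 by 1.59 (SE 0.081), both higher, while ATF6 (-0.90, SE 0.064) and ATF6B (-0.84, SE 0.071) were lower. DDIT3, which encodes CHOP, was above NC (405 and 427) in both groups, at 1661 and 1667 with siMEX3A_1 and 1004 and 1114 with siMEX3A_2, and differed by 0.65 (SE 0.069).

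Targets of ATF4 had no common direction, with 8 of 22 higher and 7 lower. TRIB3, a pseudokinase, was higher by 1.52 (SE 0.060) and the transcription factor ATF5 lower (-2.33, SE 0.10), at 142 and 129.6 against 662 and 698 normalized counts. ASNS, which makes asparagine, did not pass (0.13, SE 0.059). Cytosolic aminoacyl-tRNA synthetases were higher in 12 of 14 with small differences (median 0.27). With library size scaling alone or a replicate block 10 were higher, and fewer than 12 were when any 1 siRNA library was left out. Of 17 heat shock genes 11 were higher and 4 lower. The inducible HSPA1A (2.14, SE 0.11) and HSPA1B (2.38, SE 0.084) were furthest apart. They are near-identical copies whose reads may be split between them, and HSP90AA1 (-0.29, SE 0.045) and DNAJA1 (-0.68, SE 0.057) were lower.

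Hypoxia targets and glycolytic genes leaned towards siMEX3A_1, with 20 of 29 higher and 4 lower (median 0.71). HK2, the inducible hexokinase, had 3369 and 3771 normalized counts against 737 and 740.0, with 928 and 831 in NC. VEGFA, the endothelial growth factor, had 5839.6 and 6182 against 2144 and 2112, with 1309 and 1178 in NC. Differences were 2.27 (SE 0.081) and 1.50 (SE 0.065), and CA12, a membrane carbonic anhydrase, differed by 1.83 (SE 0.088) with siMEX3A_1 at 476 and 486, close to NC at 471 and 459, and siMEX3A_2 at 141 and 129. LDHA (1.20, SE 0.045) and ALDOA (1.04, SE 0.043) of glycolysis were higher, while PDK1, which blocks entry of pyruvate into the citric acid cycle, did not pass (0.06, SE 0.081, interval -0.12 to 0.25). Transport and 1 glycolytic step ran the other way, with SLC2A3 (-1.80, SE 0.067), SLC16A3 (-1.47, SE 0.16) and PGAM1 (-0.97, SE 0.042) lower.

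Other genes of the HIF pathway, chosen after their values were seen, did not share the gap of EPAS1. HIF1A had 8814 and 10493 with siMEX3A_1 and 11672 and 11592 with siMEX3A_2, a difference of -0.27 (SE 0.074) in the other direction that did not pass without siMEX3A_1 replicate 1 or either siMEX3A_2 library (edgeR adjusted p = 0.0657, 0.0805 and 0.0699). VHL, whose product marks HIF subunits for degradation, differed by 0.32 (SE 0.065) and the HIF prolyl hydroxylase gene EGLN1 by 0.83 (SE 0.063), and the partner gene ARNT did not pass (-0.11, SE 0.062). The element ACGTG was present in 7 of 16 promoters of the hypoxia list (43.8%) and in 18.4% of all promoters.

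Nuclear-encoded respiratory chain subunits were higher with siMEX3A_1 in 17 of 24 and lower in 1, mostly by little (median 0.32). SDHA, of complex II, stood out with 2933 and 2981 against 938 and 922 normalized counts and 2424 and 2417 in NC, a difference of 1.67 (SE 0.057). COX6C was the lowered member (-0.49, SE 0.077). Transcripts from the mitochondrial genome leaned the other way, with 10 of 15 lower and 4 higher (median -0.17). Of 20 mitochondrial ribosomal protein genes, 13 were higher and 3 lower. The list of ribosome biogenesis genes and MYC targets was higher, with 23 of 30 genes above and 1 below (median 0.55). In it BOP1, of ribosomal RNA processing, differed by 1.69 (SE 0.19) and SRM, spermidine synthase, by 1.57 (SE 0.081). MYC itself differed by 0.63 (SE 0.055). Cytosolic ribosomal protein genes did not share that direction, with 5 of 33 higher and 17 lower (median -0.19). Without siMEX3A_2 replicate 2 these counts were 3 and 11, and 3 were higher without siMEX3A_1 replicate 1 or without siMEX3A_2 replicate 1.

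Sterol synthesis was lower with siMEX3A_1 along nearly the whole pathway, 22 of 24 genes lower and 1 higher (median -0.62). IDI1, an isomerase of the isoprenoid steps, had 501 and 536 normalized counts with siMEX3A_1, 2815 and 2899 with siMEX3A_2 and 1806 and 1951 in NC. FDPS, farnesyl diphosphate synthase, had 1694 and 1430.4, then 6119.7 and 6020.3, then 4449 and 4697 in the same order. The siMEX3A_1 libraries were the lowest of the 6 in both, with log2 differences of -2.46 (SE 0.072) and -1.96 (SE 0.078). The gaps were narrower at LSS (-0.33, SE 0.063) and DHCR7 (-0.57, SE 0.063). SREBF2, a transcription factor of sterol synthesis genes, was lower (-0.72, SE 0.047).

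Fatty acid synthesis did not follow the sterol genes as a block, with 9 of 17 lower and 3 higher. FASN (-0.13, SE 0.055, interval -0.26 to -0.01), SCD (0.10, SE 0.056, interval -0.03 to 0.22) and SREBF1 (0.02, SE 0.056, interval -0.11 to 0.14) did not pass the test, except that FASN passed without siMEX3A_2 replicate 2 (-0.22, edgeR adjusted p = 0.0124), with library size scaling alone (-0.18, edgeR adjusted p = 0.0225) and with a minimum mean of 50 counts (-0.15, edgeR adjusted p = 0.0318). ACSS2, which makes acetyl-CoA from acetate, had 173 and 142 against 1159 and 1179.6, with 802 and 841 in NC, a difference of -2.89 (SE 0.089). The carrier FABP5 (-1.97, SE 0.13) and the desaturase FADS2 (-1.74, SE 0.064) were lower too, and the elongase ELOVL1 was higher (1.03, SE 0.064). Lipid droplet genes PLIN2 (1.53, SE 0.061) and HILPDA (1.44, SE 0.13) were higher, with PLIN2 at 6972 and 6555 against 2242 and 2429, with 1942 and 1938 in NC. Of the oxidation genes, CPT1A, which admits fatty acids to mitochondria, was higher by 0.68 (SE 0.086) and HADHA, of beta-oxidation, lower (-0.59, SE 0.057).

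Receptor tyrosine kinases of the ErbB and AXL type were higher with siMEX3A_1. Of 13 receptors and ligands of that list 8 were higher and 2 lower. ERBB3 had 357 and 360.1 normalized counts against 92.0 and 65.1, with 444 and 445 in NC. AXL had 8199 and 8180.2 against 2274 and 2136, with 5758 and 5758 in NC. EGFR had 26326 and 33668 against 11938 and 11823, with 28029 and 22634 in NC. In all of these the siMEX3A_1 libraries were above the siMEX3A_2 libraries, by 2.19 (SE 0.13), 1.89 (SE 0.052) and 1.34 (SE 0.12). MET did not pass (0.20, SE 0.081, interval 0.02 to 0.39), except without siMEX3A_1 replicate 1 (0.33, edgeR adjusted p = 0.00208) and with DESeq2 (0.21, adjusted p = 0.0396). Among feedback genes of MAP kinase signalling, DUSP6 (-1.13, SE 0.11), SPRY4 (-0.99, SE 0.14) and ETV4 (-0.92, SE 0.19) were lower, PHLDA1 (1.25, SE 0.058) higher, and DUSP1 and SPRY2 (0.13 and -0.05) within 0.2 of 0.

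In the Hippo pathway the paralogous coactivators YAP1 and WWTR1, which encodes TAZ, parted in opposite directions. YAP1 had 597 and 726 normalized counts with siMEX3A_1, 3419 and 3685 with siMEX3A_2 and 1531 and 1351 in NC, and WWTR1 had 8956 and 10307, then 3084 and 3055, then 8973 and 7674 in that order. YAP1 was thus lowest with siMEX3A_1 (-2.42, SE 0.10) and WWTR1 lowest with siMEX3A_2 (1.65, SE 0.085). Their DNA-binding partners did likewise, TEAD1 lower (-1.12, SE 0.094) and TEAD4 higher (1.51, SE 0.064). In the list of these factors and their targets 10 of 15 genes were higher and 5 lower. Targets were mixed, with CTGF (0.80, SE 0.059) and CYR61 (0.80, SE 0.038) higher and AMOTL2 (-1.0, SE 0.048) and ANKRD1 (-0.55, SE 0.062) lower.

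TGFB1, the growth factor TGF-beta 1, had 2470.3 and 2361 against 440.1 and 429, with 1938 and 1983 in NC, a difference of 2.48 (SE 0.066). The transducer SMAD3 (-1.05, SE 0.047) and the inhibitor SMAD7 (-0.73, SE 0.065) were lower. In the Notch pathway, NOTCH1 (1.46, SE 0.078), its ligand JAG2 (1.58, SE 0.13) and the target HES1 (1.54, SE 0.12) were higher and the ligand DLL1 lower (-2.56, SE 0.50). Among BMP genes the targets ID1 (1.43, SE 0.14) and ID2 (-1.11, SE 0.090) went opposite ways, and BMP4 did not pass (-0.05, SE 0.20). Of 10 Wnt feedback genes 3 were lower and 0 higher, and AXIN2, the usual readout, did not pass (0.63, SE 0.57, interval -0.66 to 1.92).

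Matrix genes had no common direction, with 12 of 26 higher and 6 lower. Several enzymes that modify or cross-link collagen were higher: PLOD2 had 5689.9 and 6110.2 normalized counts against 1484 and 1563, with 2814 and 2584 in NC, and LOXL2 had 8649.6 and 8536 against 2332 and 2225, with 8757 and 8335 in NC. These differed by 1.95 (SE 0.067) and 1.92 (SE 0.051), and PLOD1 (1.43, SE 0.072) and P4HA1 (1.13, SE 0.076) by less. Structural genes included COL18A1, higher by 1.67 (SE 0.058), COL7A1, lower (-0.67, SE 0.085), and SPARC, a collagen-binding glycoprotein, lower (-1.74, SE 0.042). Of 12 proteases and inhibitors 4 were higher and 8 lower. PLAT, tissue plasminogen activator, had 263 and 237 against 1613 and 1617, with 796 and 839.7 in NC. ADAMTS1, a secreted metalloprotease, had 8425 and 9551 against 1619 and 1594, with 3772 and 3398 in NC. They were furthest apart in opposite directions, -2.69 (SE 0.074) and 2.48 (SE 0.077), and the inhibitor SERPINE2 was higher by 1.72 (SE 0.13). Of 12 integrin chains 4 were higher and 6 lower, and with DESeq2 or no filter on low counts 4 were higher and 4 lower. Fewer were called in each direction without siMEX3A_1 replicate 2 or without either siMEX3A_2 library. The beta chains ITGB6 (1.89, SE 0.095), ITGB4 (1.77, SE 0.072) and ITGB1 (1.18, SE 0.049) were higher, and the alpha chain ITGA2 (-0.97, SE 0.11) and the beta chain ITGB3 (-0.94, SE 0.11) lower.

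The kidney developmental regulators PAX2 and LHX1 were higher with siMEX3A_1 than with siMEX3A_2, and several tubule genes were lower. PAX2, of the kidney primordium, had 1801 and 1657 normalized counts with siMEX3A_1, 2496 and 2674 in NC and 686 and 618 with siMEX3A_2. It was lowest with siMEX3A_2, with a difference of 1.41 (SE 0.079), and LHX1 differed by 2.35 (SE 0.081). The related PAX8 had a difference of 0.16 (SE 0.052), which did not pass without siMEX3A_1 replicate 1 or siMEX3A_2 replicate 2 (edgeR adjusted p = 0.0624 and 0.239) or with library size scaling alone (0.0968). CA2, a carbonic anhydrase (-1.68, SE 0.20), MME, neprilysin of the brush border (-1.55, SE 0.10), and AMACR (-1.02, SE 0.098) were lower. Of the keratins KRT19 (1.59, SE 0.055) was higher and KRT7 (-1.46, SE 0.20) lower, and KRT18 did not differ detectably (0.04, SE 0.061, interval -0.10 to 0.18).

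**Figure D4:**
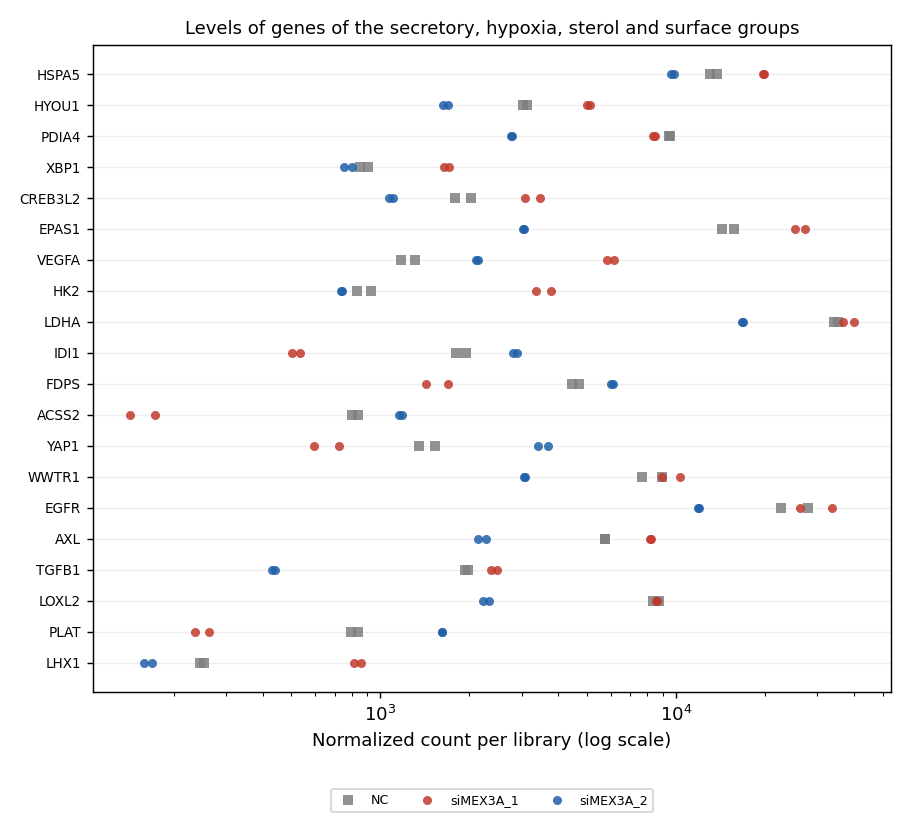
Normalized counts on a log axis for genes of the secretory, hypoxia, sterol, signalling, matrix and kidney groups, with 1 point per library of NC, siMEX3A_1 and siMEX3A_2. The siRNA groups lie apart on every line, with siMEX3A_1 to the left for IDI1, FDPS, ACSS2, YAP1 and PLAT and to the right for the others shown.

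Junction and mesenchymal genes gave no common direction. CDH2, N-cadherin, was higher by 1.05 (SE 0.064), SNAI2, a repressor of epithelial genes, by 1.20 (SE 0.11) and VIM, vimentin, by 0.73 (SE 0.035). CLDN1, of tight junctions, was lower (-1.03, SE 0.047), as were JUP, plakoglobin (-1.21, SE 0.069), and S100A4, a calcium-binding protein (-1.12, SE 0.24). Of 11 tubulin genes, 8 were higher and 1 lower. TUBB2A (2.16, SE 0.075), TUBB3 (2.03, SE 0.069) and TUBA4A (1.83, SE 0.053) were furthest apart, TUBB6 was lower (-1.20, SE 0.059) and the abundant TUBA1B did not pass (0.07, SE 0.045). Tubulin genes are close copies, so counts of members can borrow from each other.

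Several NF-kappaB targets were lower with siMEX3A_1, while CXC chemokine genes were higher. Of the 21 genes of this list 12 were lower and 6 higher. ICAM1, a leukocyte adhesion receptor, had 37.4 and 36.7 normalized counts against 193 and 185, with 123 and 110.2 in NC. BIRC3, an inhibitor of apoptosis, had 421 and 432 against 1589 and 1600.2, with 2057 and 2054 in NC. They differed by -2.35 (SE 0.16) and -1.90 (SE 0.064), and the subunit gene RELB by -1.93 (SE 0.14), alongside CCL2 above. CXCL8 was higher by 0.84 (SE 0.094), CXCL3 by 0.86 (SE 0.18), CXCL2 by 0.48 (SE 0.085) and CXCL1 by 0.47 (SE 0.090). Of 14 genes of complement, coagulation and the acute phase 5 were higher and 7 lower. Among them C3 (-2.43, SE 0.16), SAA1 (-2.27, SE 0.16) and AMBP (-2.90, SE 0.28) were lower, and the coagulation gene THBD higher (1.61, SE 0.14). Interferon-induced genes were lower in 9 of 20 and higher in 5, OAS2 with the widest gap (-1.56, SE 0.094), and ISG15 did not pass (0.02, SE 0.15). TAP1, the peptide transporter, was higher by 1.48 (SE 0.077) while B2M was lower (-0.68, SE 0.043).

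Apoptosis regulators of the BCL2 family were divided evenly, 6 of 15 higher and 6 lower. BMF, a BH3-only activator of cell death, had 18.2 and 13.3 normalized counts against 151 and 131, with 49.6 and 59.5 in NC. The BH3-only genes BIK (-1.32, SE 0.31), PMAIP1 (-1.47, SE 0.065) and BCL2L11 (-1.21, SE 0.075) were lower with it, where BMF differed by -3.15 (SE 0.23). Of the other BH3-only genes BAD was higher (0.61, SE 0.12), and BID (0.04, SE 0.065) and HRK (0.88, SE 0.66) did not pass. BBC3 passed with all libraries (0.31, SE 0.12) and not without any 1 of the 4 siRNA libraries (edgeR adjusted p from 0.0762 to 0.273), nor with library size scaling alone, no filter on low counts or a replicate block (edgeR adjusted p = 0.0731, 0.103 and 0.0742) or DESeq2 (adjusted p = 0.131). BAK1, an effector of membrane permeabilisation, was higher by 1.62 (SE 0.100), and MCL1 did not pass, at 0.01 (SE 0.056) with an interval of -0.11 to 0.14.

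Of 18 antioxidant genes and NRF2 targets 6 were higher and 10 lower. HMOX1, haem oxygenase, was higher by 1.46 (SE 0.068) and AKR1C1, an aldo-keto reductase, by 1.60 (SE 0.11), while AKR1B10 (-0.96, SE 0.084) and the cystine transporter gene SLC7A11 (-0.78, SE 0.12) were lower. Of 11 metallothioneins and zinc transporters 3 were higher, SLC39A6 among them, and 7 lower, with MT1M at -1.33 (SE 0.097) and the importer SLC39A8 at -1.08 (SE 0.076). Of the lysosome and autophagy genes 10 of 27 were higher and 10 lower (6 higher without siMEX3A_2 replicate 2), with TFEB, a factor for lysosomal genes, at 1.11 (SE 0.12) and ULK1, the initiating kinase of autophagy, at -1.43 (SE 0.074).

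Genes of small RNA silencing, which siRNAs themselves use, were not level between the groups. Of 13 tested 9 were higher and 3 lower. With DESeq2 8 were higher, and fewer than 9 were when any 1 siRNA library was left out. AGO2, the Argonaute that cleaves targets, had 1666 and 1980.3 normalized counts with siMEX3A_1, 1309 and 1293 with siMEX3A_2 and 1670.1 and 1547 in NC. DICER1, which trims small RNA precursors, had 1429.8 and 1772, then 2945 and 2990.1, then 2618 and 2184. The former was higher by 0.49 (SE 0.086) and the latter lower (-0.89, SE 0.11), and TNRC6C, an Argonaute partner, was higher by 1.89 (SE 0.24). In mRNA decay, TOB1, an adaptor of the CCR4-NOT deadenylase, was higher by 1.18 (SE 0.071) and the exonuclease XRN1 lower (-1.03, SE 0.12). Splicing factors of the SR family and their kinases were lower in 9 of 14 and higher in 1, with SRSF6 lowest at -0.61. With no filter on low counts or a replicate block 8 were lower. Fewer than 9 were lower without siMEX3A_1 replicate 1 or without either siMEX3A_2 library. Of the chromatin genes, UHRF1 (-1.73, SE 0.074) and DNMT1 (-1.23, SE 0.059), which copy DNA methylation, were lower, while EZH2 of the Polycomb complex differed by -0.54 (SE 0.067) and DNMT3A was higher by 0.52 (SE 0.061). In the clock, ARNTL (-1.10, SE 0.092) and NR1D1 (-1.42, SE 0.10) were lower and CRY1 (0.82, SE 0.068) and CRY2 (0.85, SE 0.12) higher.

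A small set of genes was measured well enough to bound the difference closely: in 511 genes (2.81% of those tested) the 95% interval lay wholly within 0.2 of 0 on the log2 scale. The 10 narrowest of these were abundant transcripts. EEF1A1, a translation elongation factor, had 187705 and 181500.0 normalized counts with siMEX3A_1 and 186853 and 195981 with siMEX3A_2, an interval of -0.12 to 0.02, and passed with library size scaling alone (-0.10, edgeR adjusted p = 0.0393). RPLP0, of the large ribosomal subunit, had an interval of -0.02 to 0.14 and passed only without siMEX3A_1 replicate 2 (edgeR adjusted p = 0.0472). The interval of PPIA, cyclophilin A, was -0.12 to 0.05, that of HNRNPA2B1, an RNA-binding protein, -0.13 to 0.04 and that of SQSTM1, an autophagy receptor, -0.11 to 0.04. EEF2 (0.03), PTTG1IP (0.07) and RPL10 (-0.03) completed those that did not pass with all libraries. MT-CO1 (-0.08) and MT-ND4 (0.09) did pass, at differences under 0.1 and not without siMEX3A_1 replicate 2 (edgeR adjusted p = 0.102 and 0.0581) or siMEX3A_2 replicate 1 (0.112 and 0.177). Neither passed with DESeq2 (adjusted p = 0.128 and 0.0689), and MT-ND4 did not pass with library size scaling alone or with a minimum mean of 50 counts (edgeR adjusted p = 0.260 and 0.161). Genes commonly used as references were not all level: of 16, 7 were higher and 6 lower with siMEX3A_1, SDHA (1.67, SE 0.057) and GAPDH (0.82, SE 0.044) among the former and GUSB (-1.32, SE 0.10) and B2M (-0.68, SE 0.043) among the latter. TBP did not pass (-0.08, SE 0.095, interval -0.30 to 0.13).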

How the data were processed

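Single-end mRNA libraries were sequenced from ACHN cells, 2 per group. The authors deposited expected counts per gene and library in a table for each siRNA, and the tables share the NC libraries. Per the submitters' processing notes the tools were STAR and RSEM and the builds hg19 and GRCh37, with neither versions nor roles. Sources used here do not give the strand setting. The tables were joined by row order and gene name, and expected counts were rounded. Rows that share a name (4481) were kept in the fit and are not reported as genes.

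Genes were tested with edgeR 4.0.16 (R 4.3.3): the quasi-likelihood test, filterByExpr defaults, TMM, 1 spread for all 6 libraries and the contrast siMEX3A_1 minus siMEX3A_2. The p-values were adjusted by Benjamini-Hochberg over all 18583 tested rows and called under 0.05. The SE is the log2 difference over the square root of F, and 95% intervals use the moderated degrees of freedom. Replicate numbers were not used as pairs. Counts were also simulated for this contrast (18309 genes tested). Of 100 genes with a log2 change of 1, 95% were recovered, and of 100 with 0.5, 61%, with 11 unchanged genes called. Only these genes were changed, none of them at the lowest counts, and all genes had the same spread. In the data 52.2% of genes were called and the spread differs by gene, so these rates need not hold there.

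Genes, 64 lists and tests were chosen with earlier results of these data known. Named were MEX3A and its family, the 15 highest and 15 lowest differences among called genes with a unique symbol, at least 100 mean normalized counts and no overlap of groups, members of each list by lowest p or smallest difference, and the 10 narrowest intervals within 0.2 of 0. From these only part is printed. Promoter sequences are RefSeq's (GRCh38.p14), another build than the counts, and were matched by symbol. Gene classes came from GENCODE v29 symbols (17582 genes matched). Alternatives were other scaling, filters, DESeq2 1.42.0, the 4 siRNA libraries alone, a replicate block, leaving out shared names and leaving out each library. A few genes are not reported here.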

Additional observations from a re-analysis of the deposited data

How the results depend on the processing

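Where both libraries of each siRNA were kept, 7763 to 9587 genes differed between the siRNAs under other processing. In none of the 14 other ways of processing did a gene called both there and in the fit above change direction. Genes called only in an alternative were not compared by direction. Requiring a mean of 50 counts left 12917 genes tested and 805 at least 2-fold higher with siMEX3A_1. DESeq2 called 7763 genes. Replicate numbers did not pair the siRNA libraries (correlation of deviations -0.0513, 13041 genes). The same correlation was -0.327 between NC and siMEX3A_1 and 0.121 between NC and siMEX3A_2. With the replicate number as a block 9025 genes were called, 8963 of them also without it. Leaving out each library gave 7494 to 9302 genes, 2425 to 2745 at 2-fold, and a lone library was then assumed to vary like the other groups. The MEX3A difference stayed between -0.39 and -0.18 and did not pass in any alternative (edgeR or DESeq2 adjusted p from 0.154 to 0.565). Of the 230 named genes that passed, 7 fell short in at least 1 alternative (ATF4, BBC3, HIF1A, MEX3D, MT-CO1, MT-ND4 and PAX8), and 7 of 42 others passed in at least 1. Of the named genes called in the fit above or in the alternative, 0 changed direction. Sign changes of genes called in neither were not counted. Of 42 lists with a median of at least 0.2 in size, 0 changed the sign of their median. Sizes were less stable. Among lists with at least 9 tested members the largest shift of a median was 0.87, where the members tested can differ between alternatives.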
